A study of Mus musculus with 12 samples.

Results

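The genes described here are 9 mouse genes whose products carry cisplatin or copper across membranes, process the drug's glutathione conjugate or bind metal. They were taken by name, and the choice was made with earlier results of these data known. They are the organic cation transporters Slc22a2 and Slc47a1, the copper transporters Slc31a1, Slc31a2, Atp7a and Atp7b, the gamma-glutamyl transferase Ggt1, and the metallothioneins Mt1 and Mt2. The tables hold 24532 gene identifiers. Each of the 9 genes had 1 protein-coding entry in every table, and all 9 passed the filter on low values (at least 1 TPM, a transcript abundance scaled by gene length and to the same total in every library, in at least 3 libraries), which 14488 genes passed.

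The 12 libraries were total RNA of whole mouse kidney, and all of the mice had been fasted overnight. They form 4 groups of 3. FXR KO mice given GW4064 for 6 h and FXR KO mice given vehicle carried the strain label Nr1h4tm1Gonz/J, a targeted allele of Nr1h4, which encodes FXR, the farnesoid X receptor, a nuclear receptor for bile acids. WT mice given GW4064, a synthetic FXR agonist, for 6 h and WT mice given vehicle carried the label C57BL/6. The labels give no age, no dose, no vehicle time and no word on whether FXR KO and WT mice were littermates, and no library here had cisplatin. The study's title concerns FXR in cisplatin-induced kidney injury, and these libraries show the genes before any contact with the drug. Nothing in the labels ties each library to its own animal, so the spread behind every p-value is that between these samples and may be technical.

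Cisplatin enters proximal tubule cells from the blood side, mainly through the organic cation transporter OCT2 (Slc22a2), with a part ascribed to the copper importer CTR1 (Slc31a1). The proton antiporter MATE1 (Slc47a1) moves organic cations, cisplatin among them, into the urine, and the copper ATPases ATP7A and ATP7B have been tied to platinum export and sequestration in cultured cells. Gamma-glutamyl transferase on the brush border starts the breakdown of glutathione conjugates, a route linked to the drug's kidney toxicity in mice, and the cysteine-rich metallothioneins bind zinc, copper and platinum.

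The metallothioneins held the largest differences among the 9 genes, and they are known from other work as genes that metals switch on. Both lie on chromosome 8 on the plus strand of mm10, Mt2 at chr8:94172618-94173567 and Mt1 at chr8:94179089-94180327, with 5521 bases between them. The 250 bases before each deposited start (RefSeq, GRCm38.p6, plus strand) are given because both genes were called in the same comparison, at chr8:94178839-94179088 for Mt1 and chr8:94172368-94172617 for Mt2. Capitals mark the core letters of the metal response element, TGCACNC or TGCGCNC on either strand, which the zinc-sensing factor MTF1 is known to bind.
Mt1: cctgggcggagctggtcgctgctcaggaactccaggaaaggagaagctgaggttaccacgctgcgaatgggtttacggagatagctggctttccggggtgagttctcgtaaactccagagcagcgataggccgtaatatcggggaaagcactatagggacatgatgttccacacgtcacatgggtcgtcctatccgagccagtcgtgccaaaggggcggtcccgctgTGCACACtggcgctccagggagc
Mt2: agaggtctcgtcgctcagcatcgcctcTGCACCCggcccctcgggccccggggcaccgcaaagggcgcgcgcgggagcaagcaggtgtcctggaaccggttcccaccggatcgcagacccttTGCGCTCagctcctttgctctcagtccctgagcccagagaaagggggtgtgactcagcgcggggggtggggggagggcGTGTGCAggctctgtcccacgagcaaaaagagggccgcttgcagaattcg
Within its window Mt1 had 1 match, at bases -23 to -17 from the deposited start. For Mt1 and Mt2, bases outside these windows were not searched, so the counts are not those of the whole promoter. Mt2 had 3 matches, at bases -223 to -217 and -128 to -122 on the plus strand and at -50 to -44 on the minus strand. Of 32851 promoter windows of the same length, 21.4% held at least 1 such match. Mt2 also had the antioxidant response element core TGACNNNGC at bases -79 to -71, which 10.2% of windows held and which overlapped none of the capitals. The same core stood at bases -36 to -28 of Ggt1 and -164 to -156 of Slc31a2. Among the other members, Atp7a had 2 metal response element cores, Atp7b and Slc31a2 had 1 each, and Slc22a2, Slc31a1 and Ggt1 had none in the window at their deposited start. Slc47a1 was not searched. The FXR inverted repeat, searched by exact letters and found in 0.00609% of windows, and the glucocorticoid response element, found in 0.00913%, matched no member's window. These matches describe letters and are not evidence of binding.

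The libraries held 2.86 to 4.27 mapped gigabases, and 16693 to 17186 genes had a value above 0. Nr1h4 checks the genotype labels. Its TPM was 104.8, 130.8 and 134.1 in FXR KO GW4064 kidneys and 119.9, 115.9 and 113.2 in FXR KO vehicle kidneys, against 189.1, 206.0 and 241.6 in WT GW4064 kidneys and 216.8, 266.7 and 248.9 in WT vehicle kidneys. Every FXR KO library was below every WT library, and Nr1h4 differed by -1.06 ± 0.11 on the log2 scale on vehicle (SE, limma adjusted p = 1.9e-04), but transcript of the gene remained at a level above 100 TPM. Xist was at 0.0186 to 0.0788 TPM and the Y-linked Ddx3y at 67.0 to 79.0 TPM across the 12 libraries. The summed TPM of 5 markers of the whole proximal tubule (Lrp2, Cubn, Slc34a1, Slc3a1 and Hnf4a) was 5061 to 5695 in FXR KO GW4064, 5900 to 6334 in FXR KO vehicle, 6115 to 6340 in WT GW4064 and 5933 to 6210 in WT vehicle kidneys. In bulk tissue, fewer cells of a type and less RNA per cell cannot be told apart.

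The 9 genes spanned more than 2 orders of magnitude in level per transcript length. Ggt1 was the highest in every group, with a mean of 987.1 TPM over the 12 libraries (rank 86 of all genes by mean TPM). Slc47a1 followed at 563.1 TPM, Slc22a2 at 275.4, Mt1 at 251.6, Slc31a1 at 85.7, Slc31a2 at 28.4, Atp7a at 26.5, Mt2 at 23.7 and Atp7b at 3.39. This order held in the group means of FXR KO vehicle, WT GW4064 and WT vehicle kidneys. Slc31a2 and Atp7a overlapped in both vehicle groups and in FXR KO GW4064 kidneys, and Atp7a and Mt2 overlapped in FXR KO vehicle kidneys. In FXR KO GW4064 kidneys Mt1 was the third and Mt2 the sixth, where Mt1 overlapped Slc22a2 and Mt2 overlapped Atp7a. The other 7 genes varied less than the metallothioneins. The highest library was 1.20 times the lowest for Slc22a2, 1.23 for Atp7a, 1.24 for Slc47a1, 1.27 for Slc31a1, 1.36 for Slc31a2, 1.37 for Ggt1 and 1.53 for Atp7b, against 2.82 for Mt1 and 2.85 for Mt2.

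**Figure D1:**
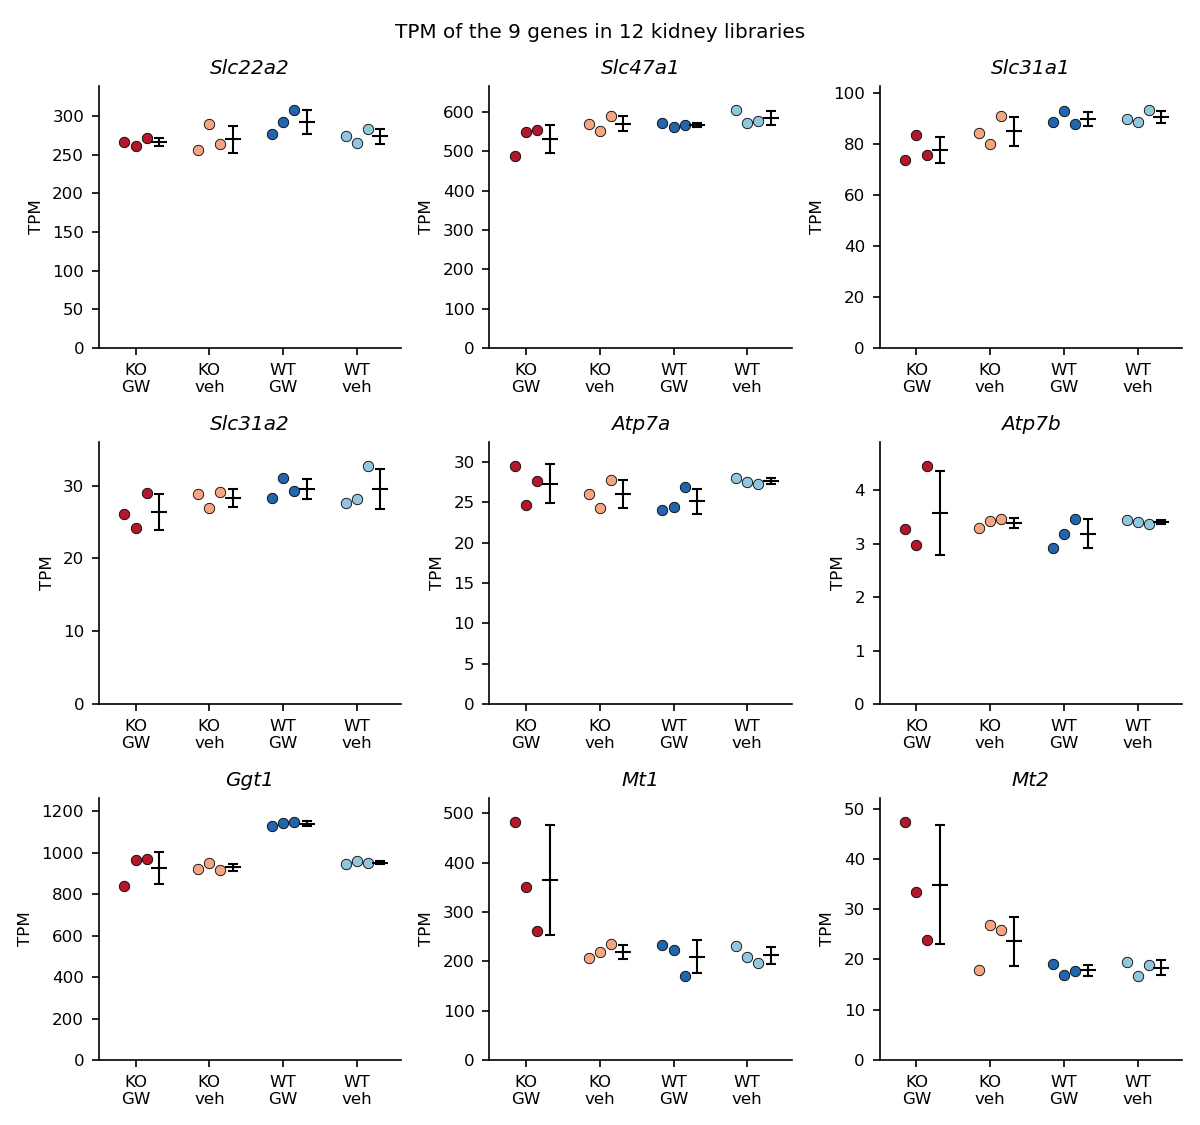
TPM of each of the 9 genes (linear axis, 1 panel a gene) in every library, with points for libraries and bars for the group mean ± SD (n = 3 each). KO stands for FXR KO, GW for GW4064 and veh for vehicle. Mt1 and Mt2 are highest in FXR KO GW4064 kidneys, Ggt1 is highest in WT GW4064 kidneys, and the other panels show small differences.

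The transcript of the blood-side transporter Slc22a2 was called in none of the comparisons. Slc22a2 (Entrez Gene 20518, chr17:12584189-12628488, plus strand, mm10) had 266.2, 261.0 and 271.2 TPM in FXR KO GW4064, 256.1, 289.6 and 263.5 in FXR KO vehicle, 276.8, 291.9 and 307.9 in WT GW4064 and 273.6, 264.4 and 283.0 in WT vehicle kidneys. The 3 FXR KO GW4064 libraries lay below the 3 WT GW4064 libraries, and the other pairs of groups overlapped. Under GW4064 the FXR KO minus WT difference of Slc22a2 was -0.13 ± 0.05 on the log2 scale (SE, 95% interval -0.25 to -0.02, limma adjusted p = 0.104), which did not pass the threshold of 0.05. GW4064 against vehicle gave 0.09 ± 0.05 in WT (interval -0.02 to 0.21) and -0.02 ± 0.05 in FXR KO kidneys (interval -0.13 to 0.10), neither called.

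Small differences of the same kind were seen in the transcript of the urine-side transporter Slc47a1. Slc47a1 (Entrez Gene 67473, chr11:61343400-61378075, minus strand) had 489.0, 548.2 and 553.9 TPM in FXR KO GW4064, 570.2, 551.7 and 588.7 in FXR KO vehicle, 572.2, 560.8 and 567.7 in WT GW4064 and 605.0, 572.3 and 577.2 in WT vehicle kidneys. The lowest value of the 12 was in FXR KO GW4064 library 1, the FXR KO GW4064 libraries lay below the WT GW4064 libraries, and the WT groups were separated by a margin of under 1 TPM. The log2 difference of Slc47a1 was -0.11 ± 0.05 for GW4064 in FXR KO kidneys (interval -0.21 to 0.00, adjusted p = 0.467), -0.04 ± 0.05 for GW4064 in WT kidneys (interval -0.15 to 0.06, adjusted p = 0.676) and -0.10 ± 0.05 for FXR KO against WT under GW4064 (interval -0.21 to 0.01, adjusted p = 0.194, all limma). The ratio of Slc47a1 to Slc22a2 in TPM stayed between 1.84 and 2.23 over the 12 libraries.

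Of the copper importers, Slc31a1 was lower in FXR KO than in WT kidneys under GW4064. Slc31a1 (CTR1, Entrez Gene 20529, chr4:62360701-62391769, plus strand) had 73.6, 83.4 and 75.7 TPM in FXR KO GW4064, 84.0, 79.8 and 90.9 in FXR KO vehicle, 88.6, 92.8 and 87.8 in WT GW4064 and 89.9, 88.7 and 93.3 in WT vehicle kidneys. All 3 FXR KO GW4064 libraries were below all 6 WT libraries. The FXR KO minus WT difference under GW4064 was -0.21 ± 0.06 on the log2 scale, or -13.6% (limma adjusted p = 0.0253). It no longer passed when WT GW4064 library 1 or 2 or FXR KO GW4064 library 1 or 3 was left out, with differences of -0.22, -0.19, -0.17 and -0.19 and adjusted p = 0.0613, 0.0890, 0.0860 and 0.0784 (range over all 23 alternatives 0.0103 to 0.968). GW4064 against vehicle gave -0.13 ± 0.06 in FXR KO (adjusted p = 0.449) and -0.01 ± 0.06 in WT kidneys (adjusted p = 0.933), and the difference between these responses was -0.12 ± 0.08 (adjusted p = 0.474), none called.

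Slc31a2 (CTR2, which in mammals is mostly intracellular and affects the processing of CTR1) lies on the same strand of chromosome 4, at chr4:62286429-62298412, 62288 bases before Slc31a1. Its TPM was 26.0, 24.1 and 29.0 in FXR KO GW4064, 28.9, 26.9 and 29.1 in FXR KO vehicle, 28.2, 31.0 and 29.3 in WT GW4064 and 27.6, 28.2 and 32.7 in WT vehicle kidneys, so all groups overlapped. The largest of its differences was FXR KO against WT under GW4064, at -0.16 ± 0.08 on the log2 scale (limma adjusted p = 0.192). The ratio of Slc31a1 to Slc31a2 in TPM was 2.61 to 3.46 over the 12 libraries.

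The copper ATPases moved by less than the test could call. Atp7a (Entrez Gene 11977, chrX:106027224-106128160, plus strand), which delivers copper to the secretory pathway and out of most cells, had 29.5, 24.7 and 27.6 TPM in FXR KO GW4064, 26.1, 24.3 and 27.8 in FXR KO vehicle, 24.0, 24.4 and 26.8 in WT GW4064 and 28.0, 27.5 and 27.3 in WT vehicle kidneys. The WT GW4064 libraries lay below the WT vehicle libraries, and the difference of -0.14 ± 0.07 on the log2 scale was not called (interval -0.30 to 0.03, limma adjusted p = 0.345). Atp7b (Entrez Gene 11979, chr8:21994348-22060074, minus strand), the copper ATPase known best from liver, had 3.27, 2.99 and 4.46 TPM in FXR KO GW4064, 3.29, 3.42 and 3.47 in FXR KO vehicle, 2.91, 3.19 and 3.45 in WT GW4064 and 3.45, 3.41 and 3.37 in WT vehicle kidneys. FXR KO GW4064 library 3 was the highest of the 12, and all groups overlapped. Atp7b was covered by a mean of only 3.58 to 6.01 reads per base, against 29.6 to 47.9 for Atp7a, and its interval for GW4064 in WT kidneys was -0.39 to 0.21 on the log2 scale.

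Ggt1 rose with GW4064 in WT kidneys. Ggt1 (Entrez Gene 14598, chr10:75568662-75586191, plus strand) had 1128, 1143 and 1150 TPM in WT GW4064 kidneys, against 944.1, 959.4 and 952.1 in WT vehicle kidneys. It had 840.3, 967.6 and 972.2 TPM in FXR KO GW4064 kidneys, against 922.5, 950.5 and 916.1 in FXR KO vehicle kidneys. The 3 WT GW4064 libraries stood above the other 9. The difference was 0.26 ± 0.05 on the log2 scale in WT kidneys, 19.8% higher (SE, interval 0.15 to 0.37, limma adjusted p = 0.0133), and -0.01 ± 0.05 in FXR KO kidneys (interval -0.12 to 0.10, adjusted p = 0.976). The difference between these responses was -0.27 ± 0.07 (adjusted p = 0.0711), which did not pass. It passed on FPKM, the deposited values scaled per mapped reads, at -0.29 with adjusted p = 0.0425 (range over 22 alternatives 0.0425 to 0.884). FXR KO against WT under GW4064 gave -0.30 ± 0.05, or -18.9% (adjusted p = 0.00171), and the same comparison on vehicle gave -0.03 ± 0.05 (interval -0.15 to 0.08).

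Of the 9 genes, Ggt1 alone was called for GW4064 in WT kidneys, beside 4.8% of all genes tested, and 0 of 9 were called for GW4064 in FXR KO kidneys, beside 0.0138%. Unadjusted limma p was under 0.05 for 1 and 3 of the 9 genes in these comparisons, beside 2793 and 1560 of the 14488 genes tested. The median size of the 9 log2 differences was 0.04 in WT kidneys, against 0.11 over all genes, and 0.10 in FXR KO kidneys, against 0.09 over all genes. Of the 5 proximal tubule markers, 1 was called higher and 0 lower for GW4064 in WT kidneys, with a median log2 difference of 0.08. Their summed TPM overlapped, at 6115 to 6340 in WT GW4064 and 5933 to 6210 in WT vehicle kidneys. Their score, the mean log2 value of the 5 markers, was 9.92 to 9.98 in WT GW4064 and 9.81 to 9.89 in WT vehicle kidneys. With this score in the fit the Ggt1 difference was 0.20 (limma adjusted p = 0.198). Because these groups do not overlap in the score, the score and GW4064 cannot be told apart here. The score of 4 fat markers was -0.26 to 2.70 in WT GW4064 and 1.99 to 2.30 in WT vehicle kidneys, and with it in the fit the difference was 0.24 (adjusted p = 0.0556, range over 23 alternatives 0.000756 to 0.198). The part of these markers in the Ggt1 difference was not tested beyond these fits.

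The metallothioneins were highest in FXR KO kidneys after GW4064. Mt1 (Entrez Gene 17748) had 482.5, 350.1 and 262.3 TPM in FXR KO GW4064 kidneys and 206.0, 218.9 and 234.2 in FXR KO vehicle kidneys, and 233.6, 223.1 and 171.1 in WT GW4064 kidneys and 231.2, 209.4 and 196.5 in WT vehicle kidneys. All 3 FXR KO GW4064 libraries were above the other 9, and they differed among themselves more than the libraries of any other group. Mt2 (Entrez Gene 17750) had 47.4, 33.4 and 23.8 TPM in FXR KO GW4064 kidneys and 18.0, 26.9 and 25.9 in FXR KO vehicle kidneys, and 19.0, 16.8 and 17.7 in WT GW4064 kidneys and 19.5, 16.6 and 18.9 in WT vehicle kidneys. The FXR KO GW4064 libraries of Mt2 were above all 6 WT libraries and overlapped FXR KO vehicle.

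Under GW4064, FXR KO kidneys were higher than WT kidneys by 0.77 ± 0.18 on the log2 scale for Mt1 (SE, 70.5% higher, limma adjusted p = 0.0121) and by 0.89 ± 0.21 for Mt2 (85.5% higher, limma adjusted p = 0.0119). The Mt1 call was lost in a fit of those 2 groups alone (adjusted p = 0.0543, range over 23 alternatives 0.00152 to 0.862). On vehicle the FXR KO minus WT difference was 0.05 ± 0.18 for Mt1 (interval -0.34 to 0.45) and 0.34 ± 0.21 for Mt2 (interval -0.12 to 0.79, adjusted p = 0.299). GW4064 against vehicle in FXR KO kidneys gave 0.69 ± 0.18 for Mt1 (interval 0.29 to 1.08, unadjusted p = 0.00265, adjusted p = 0.234, limma) and 0.52 ± 0.21 for Mt2 (adjusted p = 0.390), neither called. In WT kidneys it gave -0.03 ± 0.18 for Mt1 and -0.03 ± 0.21 for Mt2. The difference between the responses was 0.72 ± 0.26 for Mt1 (limma adjusted p = 0.157) and 0.56 ± 0.29 for Mt2 (adjusted p = 0.336). Without FXR KO GW4064 library 3, the lowest of its group, the Mt1 value was 0.94 with adjusted p = 0.0443 (range over 22 alternatives 0.0443 to 0.919).

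Mt1 and Mt2 ranked the FXR KO GW4064 libraries in the same order, but not the libraries of any other group. The ratio of Mt1 to Mt2 in TPM was 10.2 to 11.0 in FXR KO GW4064 kidneys and 8.14 to 13.2 over all 12 libraries. Their sum was 286.1 to 529.9 TPM in FXR KO GW4064 kidneys and between 188.9 and 260.1 TPM in the other libraries. Their GENCODE transcripts share no exact run longer than 20 bases. FXR KO GW4064 library 1, the highest in both metallothioneins, was also the lowest of the 12 in Ggt1, Slc47a1 and Slc31a1. It had the lowest proximal tubule marker score of the 12 as well (9.65). Its summed TPM of macrophage (52.2), fat (290.3) and urothelium (25.6) markers was the highest of the 12. The part of cell content in the values of this library was not tested.

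**Figure D2:**
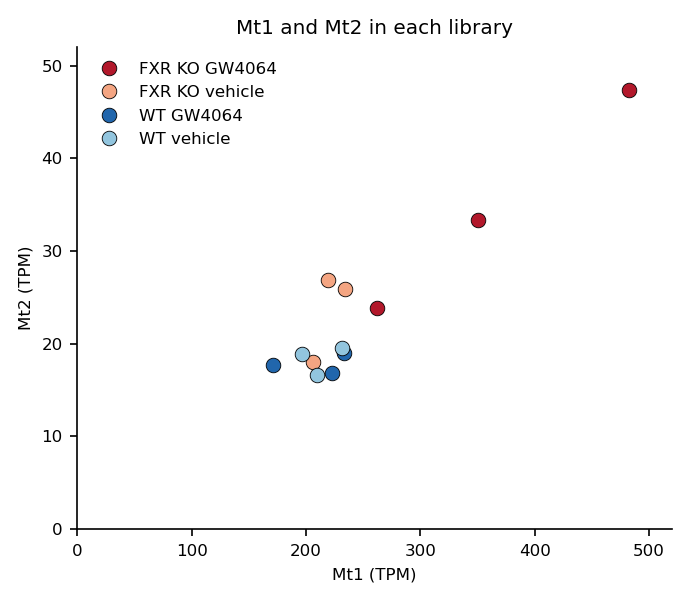
Mt2 against Mt1 in TPM (linear axes), with 1 point a library and colour by group. The 3 FXR KO GW4064 libraries lie above 262 TPM of Mt1 and the other 9 at or below 234 TPM.

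In FXR KO against WT kidneys under GW4064, 4 of the 9 genes were called (Mt1 and Mt2 higher, Ggt1 and Slc31a1 lower), beside 18.5% of all genes tested. The groups did not overlap for these 4 genes, nor for Slc22a2 and Slc47a1, which were not called. The share of all genes whose groups did not overlap was not computed. On vehicle, 0 of 9 were called, beside 12.9% of all genes. None of the 9 had an unadjusted limma p under 0.05 there, beside 4426 of the 14488 genes tested. For the difference between the responses, 0 of 9 were called, beside 3.19% of all genes. There 2 of 9 had an unadjusted limma p under 0.05, beside 2756 of the 14488 genes tested. These comparisons share libraries, so the values of a gene in them are not independent. The proximal tubule marker score did not overlap either, at 9.65 to 9.77 in FXR KO GW4064 and 9.92 to 9.98 in WT GW4064 kidneys, and 4 of the 5 markers were called lower with a median log2 difference of -0.22. With this score in the fit 0 of the 9 genes were called, and the differences were 0.33 for Mt1, 0.11 for Mt2, -0.14 for Ggt1 and -0.03 for Slc31a1. Because the groups do not overlap in the score, the score and the genotype cannot be told apart here. The summed TPM of 3 macrophage markers was 34.4 to 52.2 in FXR KO GW4064 and 31.97 to 36.3 in WT GW4064 kidneys (0 of 3 called), and 41.2 to 47.2 in FXR KO vehicle and 32.1 to 32.7 in WT vehicle kidneys (1 of 3 called higher). The sum of 4 markers of the S3 segment of the proximal tubule was 1314 to 1479 in FXR KO GW4064 and 1747 to 1778 in WT GW4064 kidneys (1 higher and 3 lower called), and 1226 to 1349 in FXR KO vehicle and 1619 to 1792 in WT vehicle kidneys (2 lower). The sum of 3 podocyte markers was 121.2 to 129.5 in FXR KO GW4064 and 138.9 to 144.2 in WT GW4064 kidneys (2 lower), and 114.5 to 128.6 in FXR KO vehicle and 152.9 to 160.1 in WT vehicle kidneys (3 lower). The adrenal enzyme Cyp11b1 was at 0 in every group, with an adrenal marker sum of 1.62 to 2.49 TPM. The part of the macrophage, S3 and podocyte markers was not tested.

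**Figure D3:**
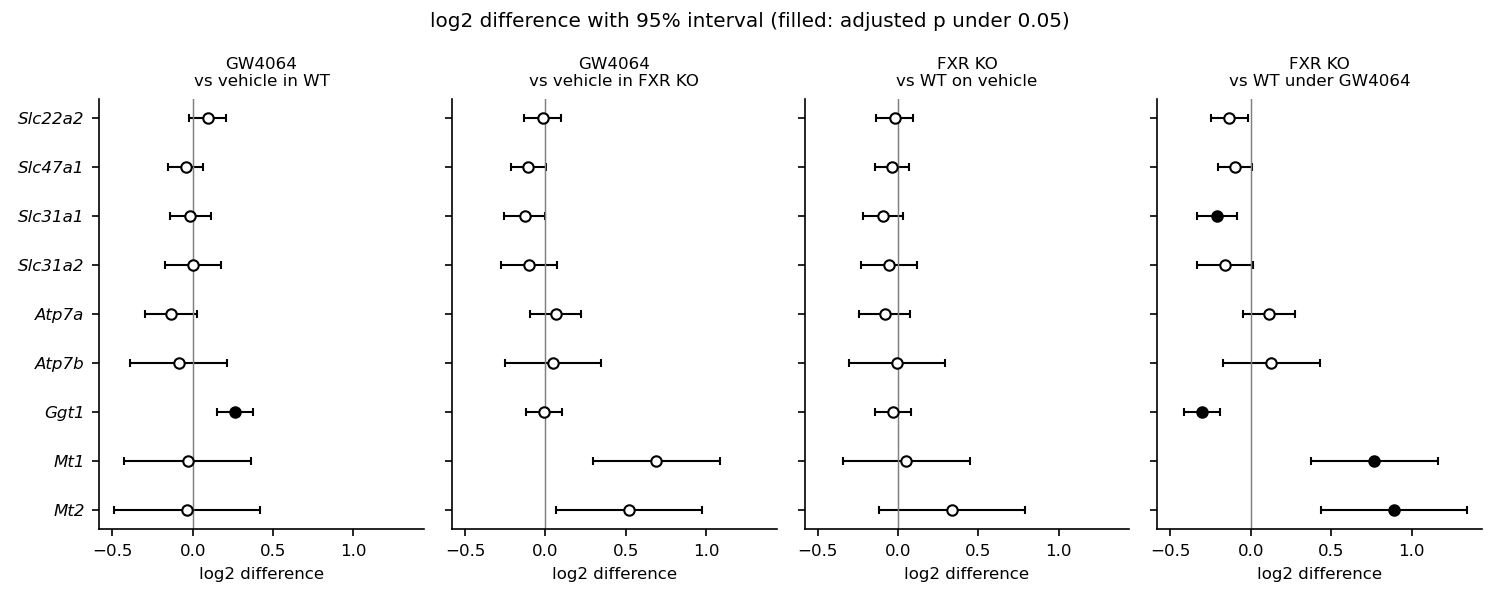
Log2 difference of each of the 9 genes with its 95% interval, in the 4 two-group comparisons, with filled points for those called at a limma adjusted p under 0.05. Filled points are Ggt1 for GW4064 in WT kidneys, and Mt1, Mt2, Ggt1 and Slc31a1 for FXR KO against WT under GW4064.

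Genes that act beside these 9 were counted in 6 lists, which were also chosen with earlier results of these data known, so their counts are descriptions. The counts are to be read beside the shares of all genes called, 4.8% for GW4064 in WT kidneys, 12.9% for FXR KO against WT on vehicle and 18.5% under GW4064. For GW4064 in FXR KO kidneys the share was 0.0138%, or 2 of 14488 genes, and for the difference between the responses it was 3.19%. With the proximal tubule marker score in the fit, 0 of the 18 calls named below for FXR KO against WT under GW4064 remained (adjusted p from 0.0998 to 0.997). Of the 9 named for GW4064 in WT kidneys 2 remained (Gclm and Ggt6), and of the 11 on vehicle all but Heph (adjusted p = 0.0536). The groups compared overlap in this score on vehicle only. In the other comparisons the score cannot be told apart from genotype or GW4064. Of the organic cation and carnitine transporters, Slc22a3, Slc47a2 and Slc29a4 stayed under the filter, and 4 of 7 were tested. Slc22a4 (OCTN1) was lower in FXR KO kidneys, at 46.6 ± 3.88 TPM in FXR KO GW4064 against 70.3 ± 2.17 in WT GW4064 (-0.59 ± 0.07 log2, limma adjusted p = 1.4e-04) and at 48.7 ± 3.44 in FXR KO vehicle against 62.4 ± 3.33 in WT vehicle (-0.36 ± 0.07, adjusted p = 0.00831). With the tubule score the difference under GW4064 was -0.36. Slc22a5, the carnitine transporter, was lower under GW4064 (-0.17 ± 0.04, adjusted p = 0.0162), a call lost without WT GW4064 library 1 or 2 or FXR KO GW4064 library 3 (adjusted p up to 0.0537), and at -0.04 with the tubule score. None of the 4 was called for GW4064 in either genotype, beside 4.8% of all genes in WT and 0.0138% in FXR KO kidneys. The list median was -0.11 on the log2 scale for FXR KO against WT under GW4064, against -0.03 over all genes.

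Of 18 genes of copper handling, 1 higher and 3 lower were called in FXR KO against WT under GW4064, a share near the 18.5% of all genes, with a list median of -0.06 on the log2 scale against -0.03 over all genes. Cp, the gene of the copper protein ceruloplasmin, was at 56.3 ± 2.97 TPM in FXR KO GW4064 and 32.2 ± 3.82 in WT GW4064 kidneys (0.80 ± 0.13 log2, limma adjusted p = 0.00122). Steap2, a metalloreductase, was at 48.5 ± 3.52 TPM in FXR KO GW4064 and 82.0 ± 3.59 in WT GW4064 kidneys (-0.75 ± 0.07, adjusted p = 2.6e-05). Heph, the membrane copper oxidase hephaestin, was lower by -0.26 ± 0.06 (adjusted p = 0.00743), and Cox11, an assembly factor of cytochrome oxidase, by -0.37 ± 0.08 (adjusted p = 0.0111, lost without WT GW4064 library 1 at 0.0521, and turned to 0.0078 with the tubule score). For GW4064 in WT kidneys, Steap2 alone of the 18 was called, at 82.0 ± 3.59 TPM in WT GW4064 against 63.6 ± 5.83 in WT vehicle (0.37 ± 0.07, adjusted p = 0.0114, lost without WT GW4064 library 1 at 0.0607). On vehicle, Heph alone was called (-0.19 ± 0.06, adjusted p = 0.0420). That call was lost in 8 of 12 removals of a library (adjusted p up to 0.119) and in 5 of 11 other alternatives (up to 0.289).

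As background, zinc is known to activate MTF1 at metallothionein promoters. The part of zinc or MTF1 in the metallothionein values was not tested. Mt3, Mt4, Slc30a10 and Slc39a4 stayed under the filter, and 10 of 14 were tested. In FXR KO against WT under GW4064, 0 of the 10 were called higher and the zinc importers Slc39a14 (-0.31 ± 0.06 log2, limma adjusted p = 0.00578) and Slc39a10 (-0.32 ± 0.09, adjusted p = 0.0257, lost in 4 of 12 removals, up to 0.106) were called lower. With the tubule score these were -0.21 and -0.0035. Slc30a1, the plasma membrane zinc exporter and a known MTF1 target, had -0.15 ± 0.06 there (adjusted p = 0.103), and Mtf1 had -0.21 ± 0.09 (adjusted p = 0.125). The list median there was -0.08, against -0.03 over all genes. For GW4064 in WT kidneys Slc30a1 was called, at 77.2 ± 2.67 TPM in WT GW4064 against 64.8 ± 1.72 in WT vehicle (0.25 ± 0.06, adjusted p = 0.0330, lost in 6 of 12 removals, up to 0.133, and at 0.16 with the tubule score).

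As background, glucocorticoids also induce metallothioneins, and their part in these values was not tested. For 10 glucocorticoid-responsive genes in FXR KO against WT kidneys, the median log2 difference was 0.39 under GW4064 and 0.25 on vehicle. Over all genes it was -0.03 and -0.09. Of the 10, 2 were called higher and 0 called lower in each comparison, beside 18.5% and 12.9% of all genes. Under GW4064 these were Cebpd, at 10.1 ± 1.34 TPM in FXR KO GW4064 and 5.70 ± 1.48 in WT GW4064 kidneys (0.79 ± 0.17, limma adjusted p = 0.00772, and 0.18 with the tubule score), and Errfi1 (0.52 ± 0.13, adjusted p = 0.0145, lost without WT GW4064 library 2 or 3, up to 0.0581). On vehicle they were Sgk1, the serum and glucocorticoid regulated kinase, at 462.4 ± 45.9 TPM in FXR KO vehicle and 153.1 ± 31.8 in WT vehicle kidneys (1.61 ± 0.19, adjusted p = 4.4e-04), and Errfi1 (0.82 ± 0.13, adjusted p = 0.00242). Sgk1 was not called under GW4064 (0.31 ± 0.19, limma adjusted p = 0.292). Per1 and Tsc22d3 were lower in FXR KO kidneys there (-0.36 and -0.21), as were Per1 and Zbtb16 on vehicle (-0.24 and -0.32), none called. The rest of the 10 genes were higher in each comparison. None of the 10 was called for GW4064 in FXR KO kidneys, beside 0.0138% of all genes.

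In the list around Ggt1, 14 of 15 genes of glutathione synthesis, conjugation and mercapturate formation were tested (Dpep2 was under the filter). For GW4064 in WT kidneys 3 were called higher and 2 lower, with a list median of -0.04 on the log2 scale against -0.03 over all genes. Ggt6, a related transferase, was at 19.7 ± 2.59 TPM in WT GW4064 against 11.9 ± 0.957 in WT vehicle (0.70 ± 0.10 log2, limma adjusted p = 0.00190). The glutathione synthesis subunit Gclm (0.43 ± 0.05, adjusted p = 7.6e-04) and the transferase Gsta4 (0.93 ± 0.14, adjusted p = 0.00254) were higher. Gstm1 (-0.32 ± 0.08, adjusted p = 0.0357) and Gstp1 (-0.24 ± 0.06, adjusted p = 0.0384) were lower, and these calls were lost in 5 and 6 of 12 removals (adjusted p up to 0.136 and 0.146). With the tubule score Gstm1 was at -0.19 in this comparison.

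In FXR KO against WT under GW4064, 3 of the 14 were higher and 3 lower, with a list median of 0.03 on the log2 scale against -0.03 over all genes. Gstp1, the pi-class transferase, was at 336.7 ± 22.4 TPM in FXR KO GW4064 and 194.0 ± 4.96 in WT GW4064 kidneys (0.79 ± 0.06, limma adjusted p = 4.3e-06). Gstm1 was higher by 0.63 ± 0.08 (adjusted p = 1.7e-04) and Gclc, the catalytic subunit of glutathione synthesis, by 0.47 ± 0.11 (adjusted p = 0.0118, lost without WT GW4064 library 1 at 0.0520 and in a fit of the groups compared alone at 0.0543). Acy3, an aminoacylase that acts on mercapturates, was at 675.8 ± 73.4 TPM in FXR KO GW4064 and 1177 ± 57.7 in WT GW4064 kidneys (-0.80 ± 0.11, adjusted p = 4.2e-04). Gclm (-0.31 ± 0.05, adjusted p = 0.00198) and Ggt6 (-0.51 ± 0.10, adjusted p = 0.00462) were lower, as was Ggt1. With the tubule score Gclc turned to -0.18, Ggt6 was at -0.01 and Gstm1 at 0.29. On vehicle, 4 were higher and 1 lower. Gsta4 had 176.5 ± 12.7 TPM in FXR KO vehicle and 92.2 ± 11.8 in WT vehicle kidneys (0.94 ± 0.14, adjusted p = 0.00197), and Gstp1, Kyat3, Ggt6 and Acy3 were called at adjusted p = 0.0170, 0.0199, 0.0386 and 0.0343 (log2 0.25, 0.27, 0.36 and -0.41), each lost in 4 or 5 of 12 removals.

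Of 8 other genes reported in platinum transport, the pumps Abcc2 and Abcc4 were called in opposite directions for GW4064 in WT kidneys. Abcc4 was at 35.3 ± 3.77 TPM in WT GW4064 against 56.6 ± 4.32 in WT vehicle (-0.68 ± 0.12 log2, limma adjusted p = 0.00671), and Abcc2 was at 597.1 ± 102.6 against 399.3 ± 12.4 (0.56 ± 0.12, adjusted p = 0.0210, lost in 5 of 12 removals, up to 0.0945). In FXR KO against WT under GW4064, Abcc4 (0.95 ± 0.12, adjusted p = 2.1e-04) and the pump Abcg2 (0.19 ± 0.04, adjusted p = 0.00593) were higher, and with the tubule score they were at 0.39 and 0.11 (adjusted p = 0.642 and 0.763). On vehicle, Abcg2 was higher (0.19 ± 0.04, adjusted p = 0.0104), and Lrrc8d, a subunit of the volume-regulated anion channel, was lower (-0.18 ± 0.04, adjusted p = 0.0247). The Lrrc8d call was lost in 3 of 12 removals (adjusted p up to 0.0873) and in 2 of 11 other alternatives (up to 0.259). The list median was -0.08 for GW4064 in WT kidneys (-0.03 over all genes) and 0.10 for FXR KO against WT under GW4064 (-0.03 over all genes). None of the 6 lists had a called gene for GW4064 in FXR KO kidneys, where only 2 of all 14488 genes tested were called.

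**Figure D4:**
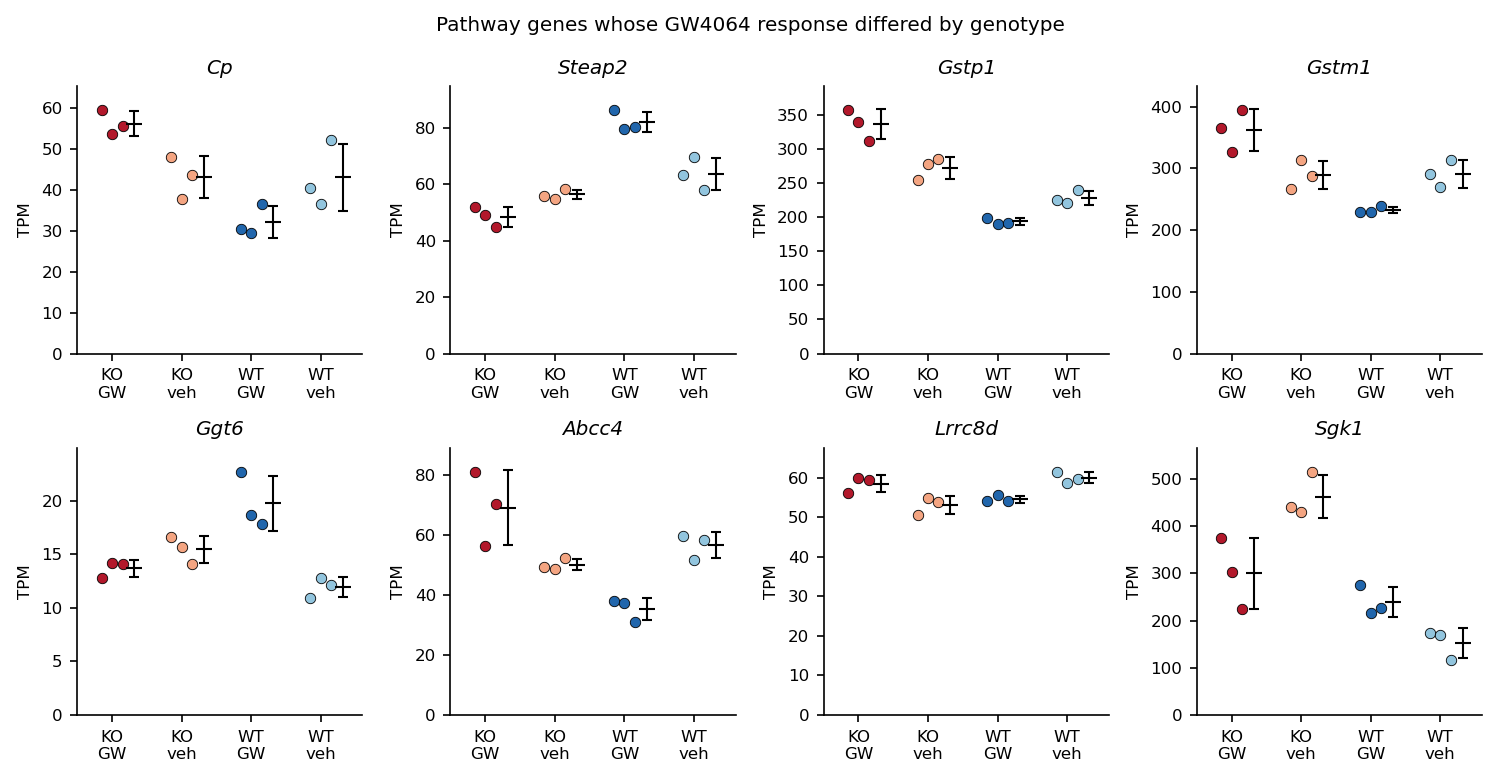
TPM by library (linear axis, 1 panel a gene) of the 8 listed genes whose GW4064 response was called as different between FXR KO and WT kidneys, with group means ± SD (n = 3 each). KO stands for FXR KO, GW for GW4064 and veh for vehicle. Abcc4, Gstm1 and Cp are higher in FXR KO GW4064 than in WT GW4064 kidneys, and Ggt6 and Steap2 are lower.

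Likeness across the libraries was measured as Pearson's r of log2 values over the 12 libraries, among 10978 genes with a mean of at least 5 TPM, and of the 2 genes with the highest r for each member those reported here are named. Ggt1 went with Etnppl (r = 0.987) and Eci3 (0.966), and Slc31a1 with Ehd1 (0.943) and Slc36a1 (0.930). Mt1 went with Mt2 (0.897) and Slfn2 (0.874), and Mt2 with Cyb5r3 (0.931). Slc47a1 went with Nat8 (0.914) and Serpina1a (0.904), and Slc22a2 with Mrpl39 (0.913) and Tspan13 (0.850). Atp7a went with Upk3a (0.926) and Fanca (0.918), Slc31a2 with Tstd3 (0.891) and Mir1927 (0.872), and Atp7b with Ap4m1 (0.831) and Slc35f2 (0.815). The libraries share their groups and the highest of many values is named, so these are descriptions.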

How the data were processed

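Total RNA of mouse kidney was sequenced as 12 libraries with a stranded total RNA kit, per the labels, and groups were taken from the sample labels. The build was mm10 and the tools were HISAT2, StringTie and Cufflinks, per the submitters' processing notes. Tool versions and gene annotation were not given in the sources used. The authors deposited TPM, scaled per library and by gene length. The deposited FPKM served as an alternative, and the deposited coverage (reads per base) for depth. No counts were used here, so no count test was applied.

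Entries of 1 identifier were summed. Symbols for 24462 of 24532 identifiers came from the RefSeq gene table, and coordinates from the deposited tables. Values were taken as log2(TPM + 0.5), a pseudocount that draws the change of low genes such as Atp7b toward 0. The filter kept 14488 genes (1 TPM or more in 3 or more libraries). One limma 3.58.1 model (R 4.3.3) with a mean per group and a variance trend was fitted to all 12 libraries, with 8 residual degrees of freedom before moderation. The 5 comparisons were GW4064 against vehicle in each genotype, FXR KO against WT on vehicle and under GW4064, and the difference between the responses. Benjamini-Hochberg adjustment ran over all genes tested, and genes were called at an adjusted p under 0.05. Intervals are 95% and moderated. An exact permutation test of 3 against 3 cannot go below 0.1 and was not used.

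The 9 genes and the 6 lists were chosen with earlier results of these data known. All 9 genes are named. Some results that the rule gives are not reported here. For each list and comparison the called genes are named, up to 4 per direction by lowest p. Sgk1, Slc30a1, Mtf1, Per1, Tsc22d3 and Zbtb16 are also given where not called, a choice made after their values were seen. Alternatives were other pseudocounts, filters, units, scaling and variance models, the groups compared alone, a replicate block, marker scores as covariates, and leaving out each library. Python 3.11.15 made the tables and figures.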

Additional observations from a re-analysis of the deposited data

Results flagged for a closer look

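None of the 9 genes was called for a difference between the genotypes in its GW4064 response, beside 3.19% of all genes tested. The 6 lists had 4, 18, 10, 14, 8 and 10 genes tested, and 8 of these genes were called (FXR KO response minus WT response, log2 ± SE, limma, adjusted over all genes tested). The cause of these differences was not tested. Abcc4 had 81.0, 56.2 and 70.1 TPM in FXR KO GW4064 against 49.3, 48.7 and 52.3 in FXR KO vehicle kidneys, and 37.8, 37.2 and 31.0 in WT GW4064 against 59.8, 51.7 and 58.4 in WT vehicle kidneys, so the GW4064 libraries lay above vehicle in FXR KO and below it in WT kidneys, with a difference of 1.12 ± 0.17 (adjusted p = 0.00492). Ggt6 had a difference of -0.86 ± 0.14 (adjusted p = 0.00823), Steap2 one of -0.58 ± 0.10 (0.0100), Gstp1 one of 0.54 ± 0.08 (0.00512) and Gstm1 one of 0.65 ± 0.11 (0.00941), and these 4 calls and that of Abcc4 held in all 12 removals of a library. With the proximal tubule marker score in the fit none of the 8 calls remained (adjusted p from 0.593 to 0.733), and Abcc4 was at 0.57, Ggt6 at -0.38 and Gstm1 at 0.31. In each genotype the GW4064 and vehicle groups do not overlap in this score. It therefore cannot be told apart from the GW4064 response here. Sgk1 had 374.3, 302.5 and 224.5 TPM in FXR KO GW4064 against 441.3, 430.9 and 515.0 in FXR KO vehicle kidneys, and 274.7, 216.2 and 226.1 in WT GW4064 against 173.2, 169.6 and 116.5 in WT vehicle kidneys, a difference of -1.30 ± 0.26 (adjusted p = 0.0229, lost in 3 of 12 removals, up to 0.0659). Cp had a difference of 0.79 ± 0.18 (adjusted p = 0.0412) and Lrrc8d one of 0.28 ± 0.06 (0.0383), and both calls were lost in 10 of 12 removals, with adjusted p up to 0.107 and 0.0993.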

How the results depend on the processing

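Of 1021 values of the 9 genes under an alternative, 960 kept their direction and their side of the threshold, 48 changed sign, 11 lost and 2 gained a call, and no called value changed sign. With the proximal tubule score as a covariate, 0 of 9 were called for GW4064 in WT and 0 for FXR KO against WT under GW4064, and with the fat score 0 for GW4064 in WT. The groups do not overlap in the tubule score in either comparison, so it cannot be told apart from GW4064 or genotype there. For the difference between responses, 1 was called on FPKM. Leaving out each library gave 1 for GW4064 in WT, 3 to 4 for FXR KO against WT under GW4064, 0 to 1 for the difference between responses and 0 otherwise. Replicate numbers did not pair samples (r -0.07 to 0.08, with the same number the best match in 6 of 18), and with the replicate block the calls among the 9 genes stayed at 1, 0, 0, 4 and 0. The causes of the changes below were not tested.

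Signs turned as follows, on the log2 scale. For GW4064 in WT, Slc31a1 was 0.0008 on FPKM, 0.0183 with median-of-ratios scaling and 0.0105 with the fat score. Mt1 was 0.0014 with that scaling, and with the tubule score Mt1 was 0.133, Mt2 0.256 and Atp7b 0.0197. For GW4064 in FXR KO, the tubule score gave -0.0933 for Atp7a, -0.126 for Atp7b and 0.0902 for Ggt1, and the fat score 0.0005 for Ggt1. On vehicle, FPKM gave 0.004 for Slc22a2 and 0.0135 for Atp7b, the scaling gave 0.0632 for Slc22a2, 0.0489 for Slc47a1, 0.028 for Slc31a2, 0.0676 for Atp7b and 0.0514 for Ggt1, and the fat score 0.0207 for Atp7b. Under GW4064 the tubule score gave 0.0261 for Slc47a1, -0.146 for Atp7a, -0.161 for Atp7b, 0.0078 for Cox11 and -0.178 for Gclc. For the difference between responses it gave 0.0592 for Slc47a1, 0.0615 for Slc31a1, -0.0542 for Atp7a, -0.146 for Atp7b and -0.207 for Mt2. With libraries left out, values ranged for GW4064 in WT from -0.038 to 0.0072 (Slc31a1), -0.0411 to 0.0784 (Slc31a2), -0.117 to 0.107 (Mt1) and -0.101 to 0.011 (Mt2). For GW4064 in FXR KO they ranged from -0.0538 to 0.0348 (Slc22a2), -0.103 to 0.152 (Atp7b) and -0.0438 to 0.0613 (Ggt1). On vehicle the ranges were -0.0745 to 0.0141 (Slc22a2), -0.101 to 0.0189 (Slc31a2), -0.0217 to 0.0129 (Atp7b) and -0.0043 to 0.113 (Mt1). Atp7b ranged from -0.0221 to 0.232 under GW4064 and from -0.0151 to 0.239 for the difference between responses.

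Over all genes, 696 were called for GW4064 in WT, 240 with the tubule score, 428 with the fat score and 337 to 768 with a library left out. For GW4064 in FXR KO 2 were called, and 0 to 51 with a library left out. For FXR KO against WT under GW4064 2677 were called, 51 with the tubule score and 1732 to 2759 with a library left out, and on vehicle 1872, or 913 to 1899. For the difference between responses 462 were called, 4 with the tubule score, 207 with the fat score and 220 to 535 with a library left out. Median-of-ratios scaling moved the split of higher and lower calls to 453 and 236 for GW4064 in WT (360 and 336 before), 833 and 539 for FXR KO on vehicle (462 and 1410), 1250 and 1309 under GW4064 (1026 and 1651) and 141 and 346 for the difference between responses (213 and 249). The filter at 5 TPM removed Atp7b. Atp7b had the lowest coverage of the 9 genes, 3.58 to 6.01 reads per base.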
